A study of Danio rerio with 3 samples.

Results

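Collagens, laminins and nidogens build the extracellular matrix, and integrins are the receptors through which cells hold on to it. Genes of these families were followed here in endothelial cells sorted from zebrafish embryos. They were taken by symbol, as every collagen chain, laminin chain, nidogen and integrin gene in the deposited gene columns except itga2b. The rule found 51 symbols among the 14581 of the table for the double positive cells, and their values are described below. A second table, for the kdrl:GFP cells, listed 92 symbols of the rule, 45 of them shared with the first. Together the tables held 98 symbols, and the 47 found only in the second were not analysed here.

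The series profiled RNA by sequencing in 3 libraries, 1 per sorted population, all from untreated embryos with reporter transgenes at 72 hours after fertilization. The double positive library came from embryos that carried both kdrl:mCherry and sele:GFP, a red reporter driven by the endothelial Vegf receptor gene kdrl and a green one driven by the E-selectin gene sele, and cells with both colours were collected. The other libraries held the GFP positive and the GFP negative cells of kdrl:GFP embryos. The value columns of their shared table carry codes that the labels tie to neither population, so their values were not used, and positive and negative cells were not compared. Between 10000 and 300000 cells were collected per population. The labels give whole embryos as the tissue and name no vessel. With 1 library there is no error between samples and no test between groups, and each gene is judged only against the rest of its own library.

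Blood vessels rest on a basement membrane, a thin sheet in which a laminin network and a type IV collagen network are joined by nidogen. Type XV and type XVIII collagens lie at its outer border. Cartilage and the sheath of the notochord are built instead on fibrils of type II collagen, which also contain type XI collagen and carry type IX collagen on their surface. Integrins are pairs of an alpha and a beta subunit, and the alpha subunit largely sets whether the pair binds laminin, fibronectin or collagen.

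Levels are given as FPKM, the fragments assigned to a gene divided by its length and by the size of the library, as the authors deposited them. Dividing by length allows genes of one library to be ranked. The median over all genes of the table was 5.98 FPKM. Of the genes behind the sort and its target cells, kdrl stood at 428 FPKM, sele at 415 FPKM and the endothelial cadherin gene cdh5 at 843 FPKM. Fragment numbers were not at hand, so depth is unknown and values carry no counting interval. A level in sorted cells joins the number of cells that use a gene and the RNA in each, which cannot be told apart.

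The highest of the 51 measured members in the double positive cells encoded a cartilage collagen. The main vascular collagen genes, col4a1 and col4a2, were not analysed here and have no place in this order. col2a1a, a chain of type II collagen, stood at 1817 FPKM, with only 24 genes of the library above it. The beta integrin gene itgb1b followed at 494 FPKM. Of the 9 members at or above 100 FPKM, 5 were cartilage collagens and 2 were basement membrane genes, lamb1a and nid1b. The other two were itgb1b and the type I collagen gene col1a1a.

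Across the families the levels ran from 0.273 FPKM to 1817 FPKM, a range of 6650-fold. The middle of the members lay at 14.1 FPKM, at the 67.2nd rank percentile of the library, and the quartiles at 5.02 and 66.4 FPKM. None was listed at 0, beside 1851 of all 14581 genes, and 4 lay below 1 FPKM. At or above 1 FPKM stood 47 of 51 members (92.2%), beside 73.3% of all genes. At or above 10 FPKM stood 28 (54.9%), beside 40.0% of all genes, and at or above 100 FPKM 9 (17.6%), beside 5.51%. With all values rescaled to the fixed sum of a TPM scale, 16 members and 10.9% of all genes reached 100. The members together took 0.854% of the summed FPKM of the library, and col2a1a alone took 0.340%.

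**Figure D1:**
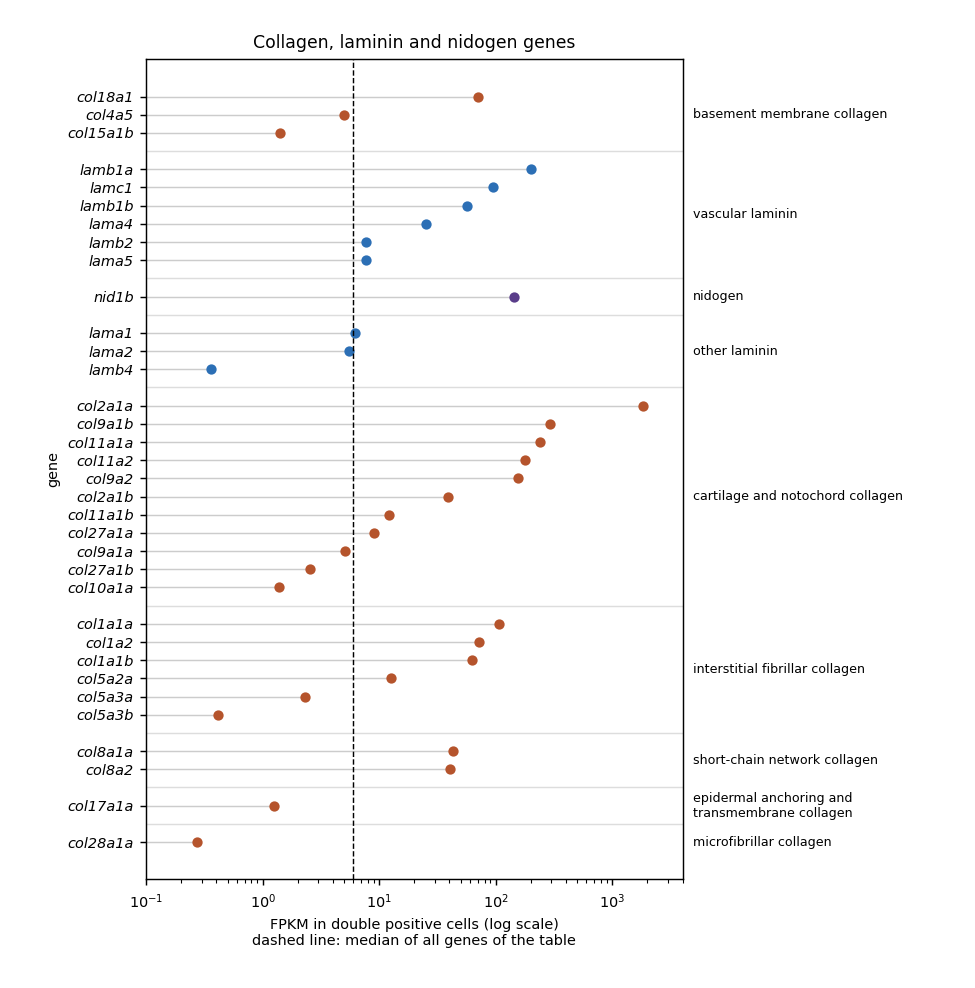
Level of each measured collagen, laminin and nidogen gene in the double positive library (1 value per gene, FPKM on a log axis), grouped by class. The dashed line is the median of all genes, 5.98 FPKM. The type II, IX and XI collagen genes at the top of their class exceed every measured basement membrane collagen, and lamb1a and nid1b lead the measured basement membrane genes. The main vascular collagen genes, col4a1 and col4a2, were not analysed here.

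Among the structural proteins of the basement membrane, high and low genes occurred side by side. Of the 9 laminin genes 4 stood at or above 10 FPKM, beside 40.0% of all genes, and their median was 7.65 FPKM. The 4 were all among the 6 chains known from vessels, whose median was 40.8 FPKM. Of the laminin chains known from vessels, the beta chain gene lamb1a stood at 199 FPKM, rank 400 of the library. Its duplicate lamb1b stood at 56.4 FPKM. The gamma chain gene lamc1, a part of most laminin trimers, stood at 95.3 FPKM. These genes encode the chains that laminins of many tissues have in common, so their level alone does not point to one laminin.

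The laminin alpha chain sets which receptor a trimer binds and where it is found. lama4, the alpha chain typical of vascular endothelium, stood at 25.2 FPKM. lama5, which in mammals joins vessel walls later than lama4, stood at 7.63 FPKM. The ratio of lama4 to lama5 was 3.30. Both were lower than the shared chains, with lamc1 at 3.79 times lama4. lamb2, the beta chain of mature vessels, muscle synapses and kidney in mammals, stood at 7.65 FPKM, so lamb1a was 26.0-fold higher.

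Laminin chains of other tissues were lower still. lama1, the alpha chain of early embryonic basement membranes, stood at 6.14 FPKM, and lama2, the alpha chain of the muscle basement membrane, at 5.53 FPKM. Both lay near the median of all genes. lamb4 stood at 0.357 FPKM. It lies next to lamb1a in the gene order of a later zebrafish assembly, and the ratio between these neighbours was 557. The chain genes lamc3, lama3 and lamb2l were found only in the second table and were not analysed here.

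The nidogen gene nid1b, whose protein bridges the laminin and type IV collagen networks, stood at 144 FPKM, rank 552. This was 1.51 times the level of lamc1, the laminin chain that nidogen binds. The genes nid1a, nid2a and nid2b were not analysed here.

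Basement membrane collagens were represented by 3 genes with widely spaced levels. col18a1, whose protein is a heparan sulphate proteoglycan and the source of the fragment endostatin, stood at 70.2 FPKM, at the 91.9th rank percentile. col4a5, a type IV chain known in mammals from the kidney filter, stood at 4.97 FPKM. col15a1b, a chain of the related type XV collagen, stood at 1.41 FPKM, so col18a1 was 49.8-fold higher. The chains that make up most vascular type IV collagen, col4a1 and col4a2, were not analysed here, and nor were col4a3, col4a4, col4a6 and col15a1a. The low level of col4a5 therefore says nothing about vascular type IV collagen.

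Cartilage and notochord collagens included the highest member, col2a1a, and had the largest summed level of the measured classes. Of 11 genes, all exceeded 1 FPKM, beside 73.3% of all genes. Above 10 FPKM stood 7 (63.6%), beside 40.0% of all genes, and above 100 FPKM 5 (45.5%), beside 5.51%. Behind col2a1a came col9a1b at 291 FPKM, col11a1a at 237 FPKM, col11a2 at 180 FPKM and col9a2 at 155 FPKM. These 5 genes encode chains of the 3 collagens that share one fibril, types II, IX and XI. col2a1a was 6.25-fold above col9a1b and 7.65-fold above col11a1a.

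Measured partner chains of types IX and XI stood at similar levels when their higher copies, chosen by level, were compared. The ratio of col11a1a to col11a2, partners in type XI collagen, was 1.32, and that of col9a1b to col9a2, partners in type IX, was 1.87. The duplicates col2a1b, col11a1b and col9a1a were far lower, at 39.0, 12.2 and 5.06 FPKM. The type XXVII genes col27a1a and col27a1b, which in zebrafish act in the notochord and the spine, stood at 9.09 and 2.54 FPKM. col10a1a, which encodes type X collagen, known in mammals from hypertrophic cartilage, stood at 1.38 FPKM. It was the lowest measured gene of the class. The type IX gene col9a3 and the symbols col9a1 and col10a1 were not analysed here.

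Taken as classes, the measured basement membrane and cartilage genes were not separated by their medians. A further 9 basement membrane symbols, col4a1 and col4a2 among them, and 3 cartilage symbols were found only in the second table. These were not analysed here, so the comparison covers the measured genes only. The 10 measured basement membrane genes (basement membrane collagens, vascular laminins and nidogen) had a median of 40.8 FPKM and the 11 cartilage genes one of 39.0 FPKM, a ratio of 1.04. Their summed levels were 612 and 2750 FPKM, so by the sum the basement membrane class had 0.222 times the level of the cartilage class. At or above 100 FPKM stood 2 of 10 (20%) and 5 of 11 genes (45.5%), beside 5.51% of all genes. Among the measured genes, which class was higher depended on the summary: of 9 alternatives, 6 put the cartilage class higher. Without the highest gene of each class the ratio was 0.982, nearer 1 than 1.04. Limiting the cartilage class to types II, IX and XI gave 0.243. Also leaving out types XV and XVIII gave the same 0.243, so these alternatives are not independent. Of the 3 alternatives that left the ratio at 1.04, 2 were filters on low values that removed no gene of either class. The last left out types XV and XVIII. It removed col18a1 above and col15a1b below the middle of the basement membrane class, so that median could not move. The cartilage class was split between very high and low genes, and col2a1b lay at its middle. The cartilage genes made up 86.8% of the summed collagen FPKM, and col2a1a alone 57.4%.

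Collagens of other matrices ranged from 0.273 to 106 FPKM. The type I collagen genes, whose protein fills skin, tendon and bone, stood at 106 FPKM for col1a1a, 71.4 FPKM for col1a2 and 62.6 FPKM for col1a1b. The summed level of both genes of the first chain was 2.35 times that of col1a2. col5a2a, a chain of type V collagen, which sits inside type I fibrils, stood at 12.7 FPKM. The related genes col5a3a and col5a3b stood at 2.28 and 0.412 FPKM. col2a1a was 17.2-fold above col1a1a.

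The short-chain collagen genes col8a1a and col8a2 stood at nearly equal levels, 43.1 and 40.4 FPKM. Type VIII collagen is known in mammals from the matrix below endothelium and from the cornea, and col8a1a is needed for the notochord in zebrafish. col17a1a, a transmembrane collagen of epidermal hemidesmosomes, stood at 1.24 FPKM. col28a1a, a beaded-filament type collagen, was the lowest member at 0.273 FPKM. Of the type VI collagens, and of the fibril-associated collagens other than type IX, the rule found no symbol in the first table.

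**Figure D2:**
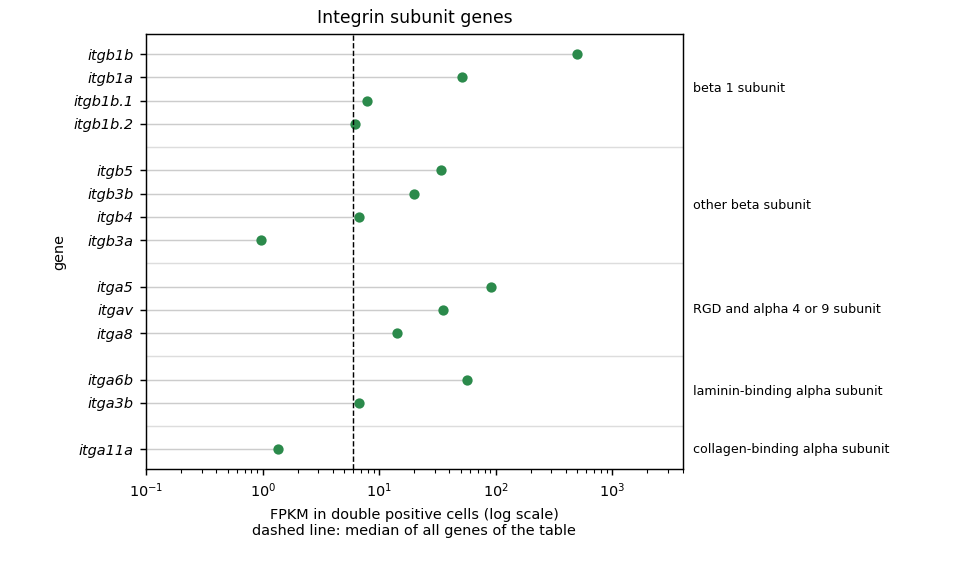
Level of each measured integrin subunit gene in the double positive library (1 value per gene, FPKM on a log axis). The dashed line is the median of all genes, 5.98 FPKM. itgb1b stands apart at 494 FPKM, and itga5 leads the measured alpha subunits at 90.6 FPKM.

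Among the measured integrin genes, a single beta subunit gene dominated the summed level. itgb1b encodes a beta 1 subunit, the partner of most alpha subunits, and stood at 494 FPKM, rank 138. It was 1.15 times the level of kdrl and made up 79.6% of the summed FPKM of the measured beta subunit genes. Its duplicate itgb1a stood at 51.3 FPKM. The related genes itgb1b.1 and itgb1b.2 stood at 7.87 and 6.13 FPKM. They lie within 2 steps of itgb1b in the protein-coding gene order of the later assembly, and the division of reads between similar copies is uncertain.

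No measured alpha subunit gene came near itgb1b. The median of the 6 measured alpha genes, 24.7 FPKM, still lay above that of the 8 beta genes, 13.8 FPKM. A further 12 alpha genes of the rule were found only in the second table and were not analysed here. itga5, which pairs with beta 1 as the main fibronectin receptor, stood at 90.6 FPKM and made up 44.2% of the summed alpha FPKM. itga6b, an alpha subunit of laminin receptors, followed at 57.0 FPKM. itgav, which binds vitronectin and fibronectin, stood at 35.3 FPKM and itga8, another receptor for the RGD peptide motif, at 14.1 FPKM. The laminin receptor gene itga3b stood at 6.71 FPKM. itga11a, a collagen receptor known in mammals from fibroblasts, was the lowest measured alpha gene at 1.34 FPKM, 67.7-fold below itga5. It was the only measured gene of the collagen-binding receptors, and itga1, itga2.1, itga2.2, itga10 and itga11b were not analysed here.

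The summed FPKM of the 8 beta genes was 620.3 and that of the 6 alpha genes 205, a ratio of 3.03. Since 12 alpha genes of the rule and 4 beta genes were found only in the second table, this ratio covers the measured genes only. The other beta genes were itgb5 at 33.6 FPKM, itgb3b at 19.7 FPKM, itgb4 at 6.67 FPKM and itgb3a at 0.963 FPKM. itgb5 and itgb3b encode partners of itgav, and the ratio of itgav to itgb5 was 1.05. The itgb3 protein also pairs with the platelet integrin subunit. The 3 thrombocyte markers found of 5 (mpl, gp1bb and f13a1b) stood between 29.3 and 42.4 FPKM. Their part in the level of itgb3b was not tested. itgb4 encodes the hemidesmosome subunit of epithelia. The leukocyte integrin genes itgb2, itgb7 and itgam were not analysed here.

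Some symbols matched the rule without encoding a matrix chain or an integrin subunit. itgb1bp1, whose protein binds the tail of beta 1 integrin, stood at 22.4 FPKM. col4a3bpa, now named cert1a, encodes a ceramide transfer protein and stood at 2.58 FPKM, and the secreted integrin-like gene itgbl1 stood at 1.78 FPKM. Without these 3, the median of the remaining 48 members was 16.9 FPKM.

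**Figure D3:**
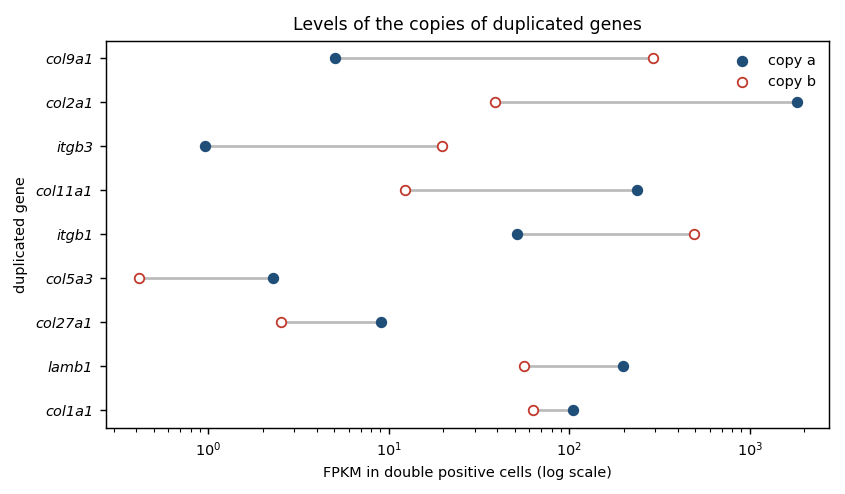
Levels of the a and b copies of the 9 duplicated genes with both copies measured (FPKM on a log axis, 1 library), ordered by their ratio. The copies of col9a1 lie farthest apart, 57.4-fold, and those of col1a1 nearest, 1.69-fold.

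In 8 of the 9 duplicated genes with both copies measured, one copy exceeded the other by more than 3-fold. The higher copy was always divided by the lower, so no ratio can fall below 1. Other duplicated genes of the library were not measured this way, so these ratios are not shown to be particular to the families. Zebrafish kept many genes in a and b copies from an ancient genome duplication. Over the 9 genes with both copies measured, the higher copy exceeded the lower by 1.69-fold to 57.4-fold, with a median of 9.63-fold. The a copy was higher in 6 (col1a1, col2a1, col5a3, col11a1, col27a1 and lamb1) and the b copy in 3 (col9a1, itgb1 and itgb3). The ratio exceeded 10-fold for col9a1 (57.4), col2a1 (46.6), itgb3 (20.5) and col11a1 (19.4). With 1 library no error can be attached to these ratios.

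Genes that process collagen covered a wide range, led by the collagen chaperones. serpinh1b and serpinh1a, which encode the chaperone Hsp47, stood at 799 and 348 FPKM. p4hb, a subunit of the prolyl hydroxylase, stood at 206 FPKM and the cross-linking enzyme gene loxl1 at 94.3 FPKM. In this list 28 of 37 genes were found, with a median of 18.6 FPKM. Of these, 17 exceeded 10 FPKM, beside 40.0% of all genes, and 3 exceeded 100 FPKM, beside 5.51%. The lowest were lox, a cross-linking enzyme gene, at 0.398 FPKM and the transglutaminase gene tgm2a at 0.0540 FPKM. Of the matrix proteins outside the 4 families, sparc, a collagen-binding glycoprotein, stood at 178 FPKM, the fibrillin gene fbn2b at 128 FPKM and mmrn2a, the gene of an endothelial matrix protein, at 101 FPKM. agrn, found under an older symbol, stood at 68.5 FPKM and the fibronectin genes fn1a and fn1b at 47.7 and 20.8 FPKM. Here 23 of 32 genes were found, of which 8 exceeded 10 FPKM, beside 40.0% of all genes. Their median was 4.57 FPKM, beside 5.98 FPKM for all genes, and smoc1 and ntn4 were listed at 0. itga5 stood at 1.90 times its ligand gene fn1a.

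Partners of integrins inside the cell ranged from a listed 0 to 183 FPKM. kank3, the gene of a talin-binding adaptor, stood at 183 FPKM, the talin gene tln1 at 164 FPKM, the kindlin gene fermt2 at 103 FPKM and lims1, which encodes a partner of integrin-linked kinase, at 92.3 FPKM. In this list 24 of 43 genes were found, with a median of 25.5 FPKM. Of these, 16 exceeded 10 FPKM, beside 40.0% of all genes, and 3 exceeded 100 FPKM, beside 5.51%. The kinase gene src stood at 7.20 FPKM and the vinculin gene vcla at 0.577 FPKM. parvab was listed at 0 while its duplicate parvaa stood at 84.0 FPKM. Among other matrix receptors, the syndecan gene sdc4 stood at 394 FPKM, antxr2a at 64.4 FPKM and the dystroglycan gene dag1 at 37.8 FPKM. The laminin-binding bcam stood at 24.8 FPKM, and the 8 genes found of 20 had a median of 17.99 FPKM. In the list of matrix breakdown, the membrane protease gene mmp14b stood at 109 FPKM, the inhibitor genes timp2a and timp2b at 80.3 and 75.1 FPKM and mmp2 at 30.6 FPKM. Of its 9 genes found of 23, 5 exceeded 10 FPKM, beside 40.0% of all genes. Their median was 15.5 FPKM, and mmp30 was listed at 0.

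**Figure D4:**
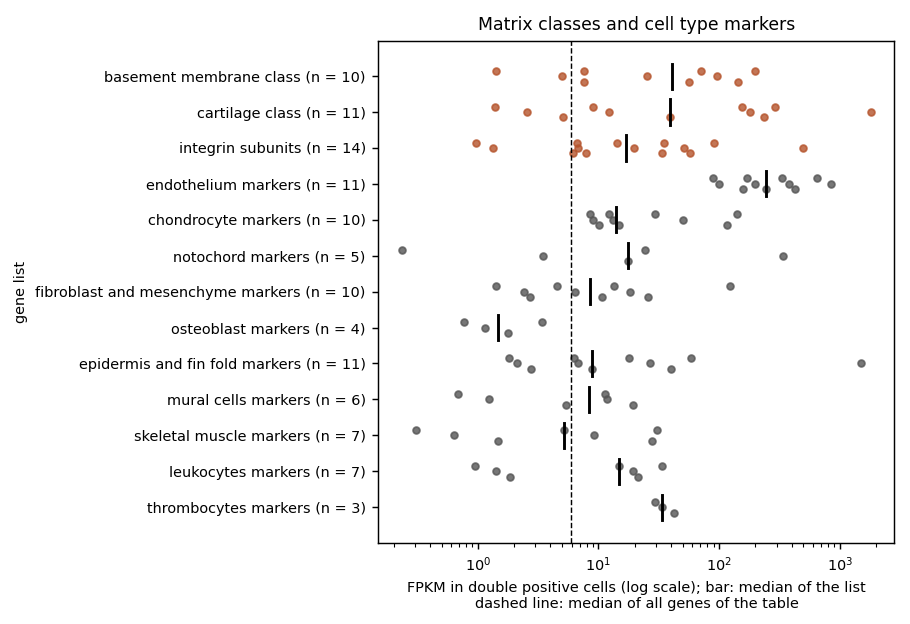
Levels of the genes of each matrix class (brown) and of cell type marker lists (grey) in the double positive library (FPKM on a log axis; each point is a gene, each bar the median of its list). The dashed line is the median of all genes, 5.98 FPKM. All 11 endothelial markers lie at or above 89.1 FPKM, and the 10 chondrocyte markers lie between 8.50 and 142 FPKM.

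Marker genes of cartilage were present beside the cartilage collagens. Of 14 chondrocyte markers 10 were found, between 8.50 and 142 FPKM, with a summed level of 405 FPKM and a median of 13.96 FPKM. None was at 0, where 1851 of all 14581 genes stood. At or above 10 FPKM stood 8, beside 40.0% of all genes, and at or above 100 FPKM 2, beside 5.51%. The highest were cnmd, listed under its older symbol lect1, at 142 FPKM and ucmab at 116 FPKM, genes of proteins secreted by cartilage cells. The matrilin gene matn1 stood at 50.1 FPKM, epyc at 29.3 FPKM and the cartilage factor genes sox9a and sox9b at 13.2 and 9.06 FPKM. col2a1a was 36.3-fold above matn1. The 11 endothelial markers found of 14 had a summed level of 3602 FPKM and a median of 245 FPKM, 17.6 times the chondrocyte median. What part chondrocytes had in the cartilage collagen levels was not tested.

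Markers of the notochord, whose sheath is also built on type II collagen, and of fibroblasts and osteoblasts ranged widely. Of 8 notochord entries 5 genes were found, at 0.235 to 341 FPKM with a median of 17.7 FPKM. Their sum was 386 FPKM, most of it from matn3a. The highest was matn3a, which is also a cartilage matrix gene, and the notochord factor gene tbxta, under its older symbol ntla, stood at 24.2 FPKM and shha at 17.7 FPKM. Of 12 fibroblast and mesenchyme markers 10 were found, at 1.42 to 124 FPKM with a median of 8.55 FPKM. Their sum was 209.9 FPKM, led by postnb at 124 FPKM. The 4 osteoblast markers found of 6 lay between 0.770 and 3.38 FPKM, with a median of 1.47 FPKM and a sum of 7.08 FPKM. No gene found in these lists was at 0, where 1851 of all 14581 genes stood. What part these cells had in the levels of the cartilage and type I collagens was not tested.

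The remaining marker lists bear on laminins and integrins of other tissues. The 11 epidermal and fin fold markers ranged from 1.81 to 1494 FPKM with a median of 8.90 FPKM. Their sum was 1666 FPKM, most of it from krt8 alone. The highest were the keratin genes krt8 at 1494 FPKM, krt5 at 59.1 FPKM and krt4 at 39.7 FPKM. The fin fold gene and2 followed at 26.6 FPKM. Of the 11 markers 5 stood at or above 10 FPKM, beside 40.0% of all genes. The epidermal factor gene tp63 and the epithelial cadherin gene cdh1 stood at 2.76 and 2.11 FPKM. The 6 mural markers found of 7 lay between 0.680 and 19.2 FPKM (sum 49.7 FPKM), the 7 muscle markers between 0.307 and 30.4 FPKM (sum 74.8 FPKM) and the 7 leukocyte markers found of 9 between 0.942 and 33.4 FPKM (sum 93.2 FPKM). No gene found in these lists was at 0, where 1851 of all 14581 genes stood. What part these cells had in the levels of col17a1a, itgb4 and lama2 was not tested.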

How the data were processed

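The submitters' processing notes name cutadapt, TopHat2 2.0.11 and Cufflinks 2.2.1 and the Zv9 (danRer7) build. Per the labels' protocols, libraries were made from 50 ng of total RNA after removal of ribosomal RNA. The authors deposited 1 FPKM value per gene for the double positive cells, named as cuffdiff output in the sheet name. The annotation used, and how reads with several positions were handled, were not stated in the labels or file headers. The 2 value columns of the kdrl:GFP table were not used, because no label ties them to the positive or negative cells; only its symbols were read. The planned comparisons of these cells were not made.

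With Python 3.11.15, each gene was given its rank and rank percentile among all 14581 genes, ties at their mean rank. Members were sorted into classes by symbol. Named with values were all basement membrane genes, the 4 highest and the lowest of other classes, copies of duplicated genes, and the 4 highest of the pathway, chondrocyte and epidermal lists. The other marker lists are given mainly by their ranges, and further named genes were chosen after their values were seen. Lists were matched by symbol, then by a unique synonym in a RefSeq table of assembly GRCz12tu, which also gave the gene order. Members and lists were chosen with earlier results of these data known. Ranking was checked on a simulated gene order, and pair sums on made-up values. Ratios of medians were checked on deposited values multiplied by known folds. These checks concern the arithmetic only. No sequences or coordinates are printed.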

Additional observations from a re-analysis of the deposited data

How the results depend on the processing

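No test and no paired analysis were run, since each group has 1 library and only the double positive values were used. The median rank percentile of the members, 67.2, was 62.4 among genes above 0 FPKM, 67.6 among genes at or above 1 FPKM, 66.6 without 316 small RNA genes and 69.7 with duplicated copies summed. Rescaling to the fixed sum of a TPM scale left it at 67.2. That rescaling multiplies each value by 1.87 and raised the members at or above 100 from 9 to 16, beside 10.9% of all genes; without small RNA genes there were 17, beside 12.4%. The basement membrane to cartilage ratio of medians, over the measured genes only, was 1.04, and 6 of 9 alternatives put the cartilage class higher. No alternative could cover the genes that were not analysed. The ratio was 0.222 by summed FPKM, 0.140 with copies summed, 0.243 with the cartilage class limited to types II, IX and XI, 0.243 with both classes limited and 0.982 without the highest gene of each class. The difference of mean log2(FPKM + 1) was -0.61. Leaving out low collagen genes or merging them with their copies shifts the middle of a class of 11, which moves the ratios of medians by construction. The alternatives for the kdrl:GFP libraries were not run. Unknown depth limits every value, and most of all those under 1 FPKM.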

Other observations

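One further collagen is present under an older symbol that the search by name did not take. The entry zgc:153049, a synonym of the fibril-associated collagen gene col19a1 in the RefSeq table, stood at 4.04 FPKM.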
